A study of Mus musculus with 2 samples.

Results

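The genes described here are the nuclear genes of respiratory complex I, taken as every annotated gene whose name begins with Nduf, assembly factors included. A gene's level was the sum of its long reads over all transcript models. Reads were found for 48 such genes in each library, of 14330 annotated genes with reads in replicate 2 and 13240 in replicate 1. In either library 15410 annotated genes had reads, and the annotation holds 51 Nduf names. The 3 names without reads were Ndufa11b, Ndufab1-ps and Ndufs6b, all listed as pseudogenes. The series is a long-read RNA sequencing study of hearts of B6CASTF1/J males, which are offspring of C57BL/6J crossed with CAST/EiJ, aged 18 to 20 months, with 2 libraries of 1 group, each from 2 µg of RNA. The labels call them separate biological replicates but give both the same donor identifier, so the p-values below compare these libraries and allow for counting error alone, and what separates the libraries may be technical. Reads were not divided by parental allele here.

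Replicate 2 held 1003999 mouse reads and replicate 1 held 688861. Levels are given as CPM, counts scaled to 1000000 mouse reads per library. A single long read stands for 1 transcript molecule, so CPM was not divided by transcript length unless stated. A count of 0 allows up to 2.99 CPM in replicate 2, against 4.36 CPM in replicate 1. The 6 cardiomyocyte markers summed to 32422 CPM in replicate 2, against 30999 CPM in replicate 1, while all 4 skeletal muscle markers (Myh1, Myh2, Myh4 and Actn3) had no read in either library. Within that sum Pln was called higher in replicate 2 (log2 ratio 0.44), and Myh6 (-0.14) and Actc1 (-0.15) were called lower, by the test described below. The 3 adipocyte markers summed to 8.96 CPM in replicate 2, against 52.3 CPM in replicate 1, and Cfd among them, with 7 reads in replicate 2 and 29 in replicate 1, was called lower. Of the 2 erythroid markers, Hba-a1 was called lower in replicate 2 (-0.13) and Hbb-bs was not called. The part of these markers in the results was not tested. In whole tissue, fewer cells of a type and less RNA per cell cannot be told apart.

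Complex I is the NADH:ubiquinone oxidoreductase of the inner mitochondrial membrane and the main entry point of electrons from NADH into the respiratory chain. Its matrix arm carries the flavin and the iron-sulfur clusters, and its membrane arm pumps protons. The core subunits of the matrix arm are nuclear and those of the membrane arm are mitochondrially encoded, while accessory subunits surround both arms and the Ndufaf proteins help to assemble the enzyme without staying in it. Heart muscle is rich in the complex because its contraction runs on oxidative phosphorylation.

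Together the 48 genes held 5.52% of mouse reads in replicate 2 (95% Clopper-Pearson interval 5.48% to 5.57%) and 4.93% in replicate 1 (4.88% to 4.98%). This corresponds to 52274 ± 4201 CPM (SD, n = 2), of which Ndufa4 alone gave 8569 ± 990 CPM. The 36 structural subunits summed to 42069 ± 3041 CPM. Their levels spread over a 10.7-fold range, with a coefficient of variation of 48.8% between genes. The assembly factors lay far lower, with a median of 55.4 CPM over 8 genes, against a median of 1096 CPM over the 36 structural subunits. The lowest structural subunit, Ndufs5 at 288 ± 41.2 CPM, stood above the highest assembly factor with an Nduf name, Ndufaf7 at 185 ± 18.0 CPM, in both libraries.

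**Figure D1:**
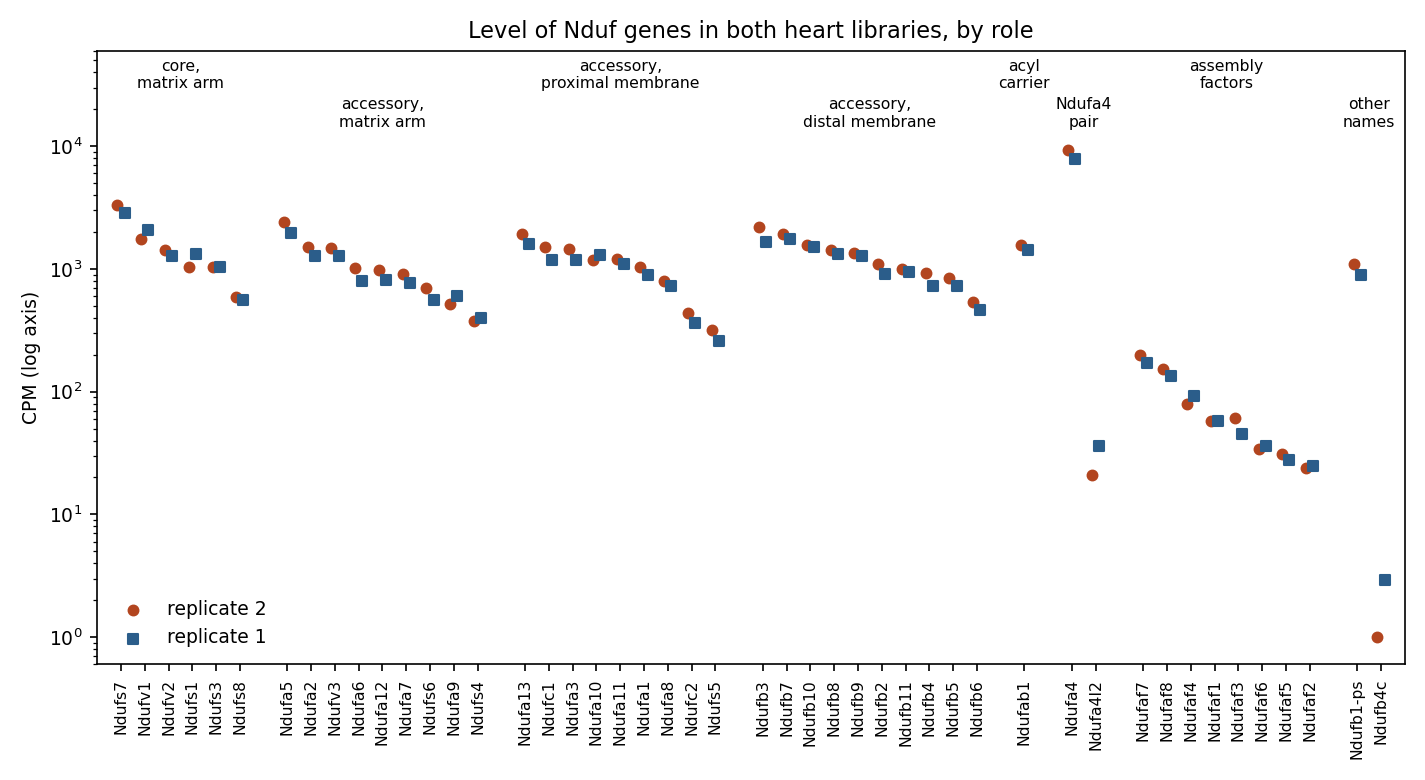
Level of 47 of the genes in CPM (log axis) in replicate 2 (circles) and replicate 1 (squares), ordered by mean level within each role. Structural subunits lie between 288 and 3080 CPM on average, Ndufa4 stands above them at 8569 CPM, and the 8 assembly factors lie between 24.3 and 185 CPM.

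Of the 47 genes tested between the libraries, 19 were called different by the exact binomial test (two-sided, p adjusted over 8836 genes by Benjamini-Hochberg), while 3.36% of all genes tested were called. In replicate 2, 16 were higher (all genes, 1.36%) and 3 were lower (all genes, 2.00%). These genes are read deeply, and depth decides how small a difference can be called. Among the 462 genes with at least as many reads as the lowest structural subunit 35.3% were called, of which 83 were higher and 80 lower in replicate 2. The edgeR exact test, with a common dispersion estimated from both libraries as 1 group, called 0 of the 47 genes. Of these, 0 had an unadjusted p under 0.05, and over all 8836 genes the test called 25. That dispersion includes the difference between the libraries itself. Scaling by TMM or DESeq2 size factors in the binomial test gave 23 of the 47, against 292 and 291 of all 8836 genes. Ndufb4c had too few reads to be tested.

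The 7 core subunits of the matrix arm summed to 10010 CPM in replicate 2, against 10141 CPM in replicate 1. Ndufs7, which carries the cluster closest to ubiquinone, was the highest of them at 3322 CPM in replicate 2, against 2838 CPM in replicate 1, and was called higher in replicate 2 (log2 ratio 0.23, adjusted p = 2.9e-06, exact binomial test). Ndufv1, the flavin and NADH binding subunit, had 1739 CPM in replicate 2, against 2060 CPM in replicate 1. It was therefore lower in replicate 2, as was the large iron-sulfur subunit Ndufs1 (1041 CPM in replicate 2, against 1322 CPM in replicate 1). The log2 ratios of replicate 2 over replicate 1 were -0.24 for Ndufv1 and -0.35 for Ndufs1, with adjusted p of 0.000177 and 1.34e-05 by the exact binomial test. Ndufs3 was nearly equal, at 1036 CPM in replicate 2, against 1032 CPM in replicate 1. The iron-sulfur subunit Ndufs8 was the lowest of the group at 573 ± 25.5 CPM (SD, n = 2), and Ndufv2 averaged 1353 ± 94.1 CPM.

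The 9 accessory subunits of the matrix arm summed to 9912 CPM in replicate 2, against 8424 CPM in replicate 1, and 7 of them were called higher in replicate 2. Ndufa5, a subunit of the ubiquinone-reducing module, led at 2412 CPM in replicate 2, against 1960 CPM in replicate 1. Ndufa2, a small subunit of the NADH-oxidizing module, had 1518 CPM in replicate 2, against 1272 CPM in replicate 1. Ndufv3, bound beside the flavin subunit, had 1474 CPM in replicate 2, against 1273 CPM in replicate 1. The other 4 that were higher in replicate 2 lay at middle levels. Ndufa6, whose human counterpart binds the acyl carrier, had 1020 CPM in replicate 2, against 793 CPM in replicate 1. Ndufa12 had 981 and 806 CPM in replicates 2 and 1, and Ndufa7 had 917 and 762 CPM in the same order. Ndufs6, a zinc-binding subunit, had 698 CPM in replicate 2, against 563 CPM in replicate 1. The log2 ratios of these 7 genes ran from 0.21 (Ndufv3) to 0.36 (Ndufa6), with adjusted p between 1.02e-07 and 0.0242. Ndufa9 and Ndufs4 were not called. Ndufs4, a subunit whose loss causes Leigh syndrome in people and a like disease in mice, was the lowest of the group at 388 ± 16.1 CPM (SD, n = 2).

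Among the 9 accessory subunits of the proximal membrane arm, 3 were called higher in replicate 2. Ndufa13, also known as Grim19, had 1936 CPM in replicate 2, against 1604 CPM in replicate 1. Ndufc1 had 1503 CPM in replicate 2, against 1187 CPM in replicate 1, and Ndufa3 had 1468 CPM in replicate 2, against 1176 CPM in replicate 1. Their log2 ratios were 0.27, 0.34 and 0.32. The other 6 were not called and ranged from 288 CPM (Ndufs5) to 1239 CPM (Ndufa10) on average.

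The low value of Ndufs5 goes with a near-identical copy that also took reads. BC002163 is annotated as a processed pseudogene on chromosome 16 (42955631 to 42955949, mm10, plus strand), and 318 of its 319 bases aligned to the coding sequence of Ndufs5 with 2 differences. Counted from 1 at the first coding base, these are T81C and A105G, with the base of Ndufs5 first. The first 120 coding bases of Ndufs5 (chromosome 4, minus strand) are shown 5′ to 3′ with those positions in capitals, because they are where the reference sequences of gene and copy differ. Which bases the CAST/EiJ alleles carry there was not analysed here. The leading transcript of Ndufs5 has 525 nt, so it also holds untranslated sequence that is not in the aligned copy.
Ndufs5: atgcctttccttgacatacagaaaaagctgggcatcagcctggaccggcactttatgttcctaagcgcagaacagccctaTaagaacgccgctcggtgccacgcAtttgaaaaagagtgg
BC002163 had 230 reads in replicate 2 and 123 in replicate 1, beside 318 and 178 reads of Ndufs5 in the same libraries. The copy thus held 42.0% of their joint reads in replicate 2 and 40.9% in replicate 1. With both counted, the level would be 546 CPM in replicate 2, against 437 CPM in replicate 1, rank 3 from the lowest of the 36 structural subunits. Which of the reads on the copy arose from Ndufs5 was not tested.

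The 10 accessory subunits of the distal membrane arm summed to 12850 CPM in replicate 2, against 11314 CPM in replicate 1. Ndufb3 led at 2182 CPM in replicate 2, against 1667 CPM in replicate 1, a log2 ratio of 0.39 (95% interval 0.29 to 0.49). Ndufb7 followed at 1840 ± 120 CPM (SD, n = 2) and Ndufb10 at 1539 ± 36.8 CPM, neither of which was called. Besides Ndufb3, the subunits Ndufb4 and Ndufb2 were called higher in replicate 2. Ndufb4 had 922 CPM in replicate 2, against 727 CPM in replicate 1, while Ndufb2 had 1088 CPM in replicate 2, against 916 CPM in replicate 1. Ndufb6 was the lowest of the group at 500 ± 53.9 CPM. A further distal subunit, Ndufb1, appears in the files only under the name Ndufb1-ps, which the annotation lists as a noncoding gene and RefSeq lists as protein coding. Ndufb1-ps had 1095 CPM in replicate 2, against 886 CPM in replicate 1 and was also higher in replicate 2, with a log2 ratio of 0.31 (adjusted p = 0.00141, exact binomial test). Ndufb4c, listed as a processed pseudogene in the annotation and as protein coding in RefSeq, is identical to 390 bases of Ndufb4 and had 1 read in replicate 2 and 2 in replicate 1.

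Ndufab1, the mitochondrial acyl carrier protein that also serves lipoic acid synthesis, averaged 1493 ± 102 CPM (SD, n = 2). Ndufa4, which was named for complex I but is found with cytochrome oxidase, had 9269 CPM in replicate 2, against 7870 CPM in replicate 1. It ranked eighth of all genes and its log2 ratio was 0.24 (adjusted p = 1.82e-19, exact binomial test). Divided by transcript length it was still the highest of the 48 genes. Its hypoxia-inducible relative Ndufa4l2 had 20.9 CPM in replicate 2, against 36.3 CPM in replicate 1, from 21 and 25 reads, and was not called.

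All 8 assembly factors had reads in both libraries and none was called different, over 8 genes tested, while 3.36% of all genes tested were called. They held 17 to 199 reads a library, so only large differences could be called. They summed to 639 CPM in replicate 2, against 591 CPM in replicate 1. Ndufaf7, a mitochondrial methyltransferase, had 198 CPM in replicate 2, against 173 CPM in replicate 1. Most of its reads, 163 in replicate 2 and 83 in replicate 1, lay on a single-exon model in the last exon. Ndufaf7-201 had 31 and 29 reads. Ndufaf8, a partner of Ndufaf5, had 154 CPM in replicate 2, against 135 CPM in replicate 1. The other 6 stayed under 100 CPM. Ndufaf4 had 79.7 CPM in replicate 2, against 91.5 CPM in replicate 1. Ndufaf1, an early factor of membrane arm assembly, had 57.8 CPM in replicate 2, against 58.1 CPM in replicate 1. Ndufaf3, the partner of Ndufaf4, had 61 reads in replicate 2, against 31 in replicate 1. Ndufaf6 had 33.9 CPM in replicate 2, against 36.3 CPM in replicate 1. Ndufaf5, an enzyme that hydroxylates Ndufs7, had 30.9 CPM in replicate 2, against 27.6 CPM in replicate 1. Ndufaf2, which is related to Ndufa12 and precedes it in assembly, was lowest with 23.9 CPM in replicate 2, against 24.7 CPM in replicate 1. The 3 lowest rested on 17 to 34 reads a library, so differences in order among them lie within counting error.

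The reads of these genes differed in how much of the transcript their models held. The deposited tables sort models into classes, among them known transcripts and incomplete splice matches (models whose introns follow part of a known transcript). Further classes are new combinations of known splice sites, models with new splice sites, and genomic models. Genomic models include single-exon ones, and their intron content was not measured here. Incomplete models took 26.2% of complex I reads in replicate 2 and 24.1% in replicate 1, against 14.2% in replicate 2 and 11.99% in replicate 1 over all other annotated genes. New spliced models of both kinds and genomic models were lower than elsewhere, with genomic models at 0.528% in replicate 2 and 0.551% in replicate 1, against 6.74% and 6.10% in other genes. No test was made on reads, which share their genes.

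The incomplete reads lay on few genes. Ndufa4, Ndufs7, Ndufa13, Ndufb3 and Ndufa5, grouped after their values were seen, held 91.3% of them in each library. Over the other 43 genes incomplete models took 3.50% of reads in replicate 2 and 3.10% in replicate 1, and known transcripts took 93.8% and 94.0%. In 99.4% of incomplete reads of replicate 2 and 99.3% of replicate 1, the model began exactly at an annotated exon start. Where the individual reads began is therefore not given by the models.

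**Figure D2:**
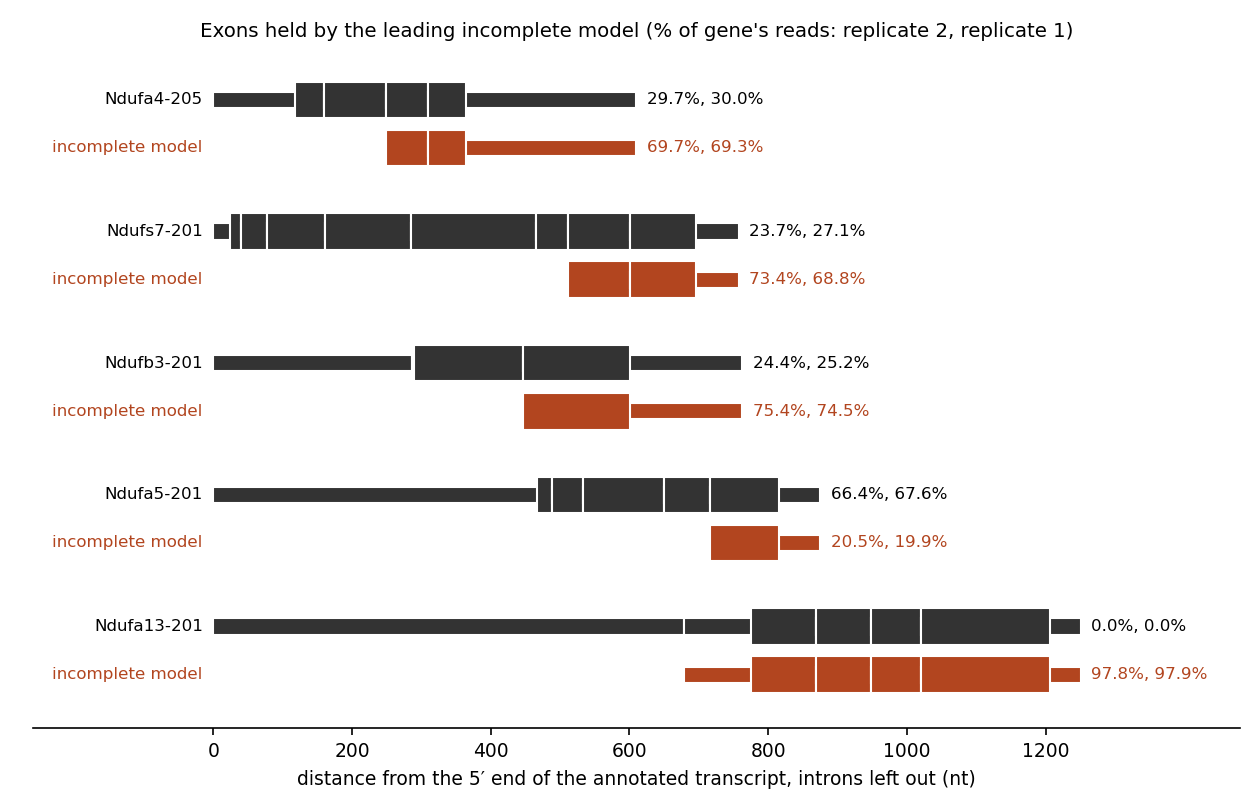
Exons of the annotated transcript (dark) and of the leading incomplete model (red) for 5 genes, placed by distance in nt from the annotated 5′ end with introns left out, with coding parts drawn thick. The percentages are the share of the gene's reads in replicate 2 and then replicate 1, and in 4 of the 5 genes the incomplete model starts inside the coding sequence.

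In Ndufa4 the leading model held only the last 2 of 4 exons and took 6482 of 9306 reads in replicate 2 and 3755 of 5421 in replicate 1. That is 69.7% (95% Clopper-Pearson interval 68.7% to 70.6%) and 69.3% (68.0% to 70.5%), while the full transcript Ndufa4-205 took 29.7% and 30.0%. In Ndufs7 a model of the last 2 of 8 exons took 73.4% of reads in replicate 2 and 68.8% in replicate 1, beside 23.7% and 27.1% on Ndufs7-201. In Ndufb3 the last of 3 exons alone took 75.4% in replicate 2 and 74.5% in replicate 1, and Ndufb3-201 took 24.4% and 25.2%. Ndufa5 differed in degree, since the full transcript Ndufa5-201 led with 66.4% in replicate 2 and 67.6% in replicate 1 and the last exon alone took 20.5% and 19.9%. The leading share of Ndufs7 had intervals that do not overlap, 71.9% to 74.9% in replicate 2 and 66.7% to 70.8% in replicate 1, but did not pass the threshold (adjusted p = 0.0544, Fisher's exact test). It did pass when the minimum was raised to 50 reads a library.

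The coding sequences around these model starts are shown because they mark what each short model leaves out. They come from the GENCODE M21 transcripts (mm10), run 5′ to 3′ on the coding strand without the stop codon, and have in capitals the part that the incomplete model holds. Ndufa4 is shown whole (246 bases, chromosome 6, minus strand), and the others over 60 coding bases on each side of the start, on chromosome 1 (Ndufb3, plus strand), chromosome 10 (Ndufs7, plus strand) and chromosome 6 (Ndufa5, minus strand).
Ndufa4: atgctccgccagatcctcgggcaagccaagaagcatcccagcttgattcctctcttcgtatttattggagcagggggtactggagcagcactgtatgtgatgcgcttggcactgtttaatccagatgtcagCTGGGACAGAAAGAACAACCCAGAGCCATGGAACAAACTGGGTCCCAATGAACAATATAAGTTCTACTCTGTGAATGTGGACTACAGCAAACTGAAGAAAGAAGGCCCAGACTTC
Ndufb3: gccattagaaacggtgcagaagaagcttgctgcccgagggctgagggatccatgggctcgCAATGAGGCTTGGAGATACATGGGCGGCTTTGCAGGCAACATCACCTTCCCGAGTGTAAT
Ndufs7: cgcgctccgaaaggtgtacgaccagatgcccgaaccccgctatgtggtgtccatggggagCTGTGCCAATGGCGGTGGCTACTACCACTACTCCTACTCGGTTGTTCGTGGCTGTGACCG
Ndufa5: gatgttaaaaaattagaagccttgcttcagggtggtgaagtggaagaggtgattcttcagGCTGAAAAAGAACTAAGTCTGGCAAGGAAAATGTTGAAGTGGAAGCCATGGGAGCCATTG
The held part began at coding base 132 of Ndufa4, 159 of Ndufb3, 489 of Ndufs7 and 250 of Ndufa5, each time at an exon boundary. It covered 46.7%, 49.4%, 27.4% and 28.4% of the coding bases in that order of genes. In frame with the annotated protein, no ATG lay in the held part of Ndufa4 or Ndufs7.

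Ndufa13 was of another kind. No read was placed on its only annotated transcript with 5 exons, Ndufa13-201, and a 4-exon model took 1901 of 1944 reads in replicate 2 and 1082 of 1105 in replicate 1, or 97.8% and 97.9%. This model lacked only the first, noncoding exon and held the whole coding sequence, so its class name does not mean a missing part of the protein. Its 5′ end lay at 69901732 on chromosome 8 (mm10, minus strand).

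Levels were therefore also counted from models that hold a whole annotated coding sequence with its introns in place. The 36 structural subunits then summed to 35927 ± 2119 CPM (SD, n = 2), their range narrowed to 6.64-fold, and the coefficient of variation between genes was 41.6%. Ndufs7 moved from rank 2 to rank 26 of the 46 coding genes, with 788 CPM in replicate 2, against 768 CPM in replicate 1. Ndufb3 moved from rank 4 to rank 34, with 533 CPM in replicate 2, against 425 CPM in replicate 1. Ndufa4 stayed first at 2763 CPM in replicate 2, against 2382 CPM in replicate 1, followed by Ndufb7 at 1822 ± 115 CPM and Ndufv1 at 1816 ± 231 CPM. By this count the 3 lowest structural subunits were still Ndufs5, Ndufs4 and Ndufc2, at 275, 353 and 402 CPM. Among the 8 Ndufaf genes the highest was then Ndufaf8 at 83.5 CPM, in place of Ndufaf7.

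**Figure D3:**
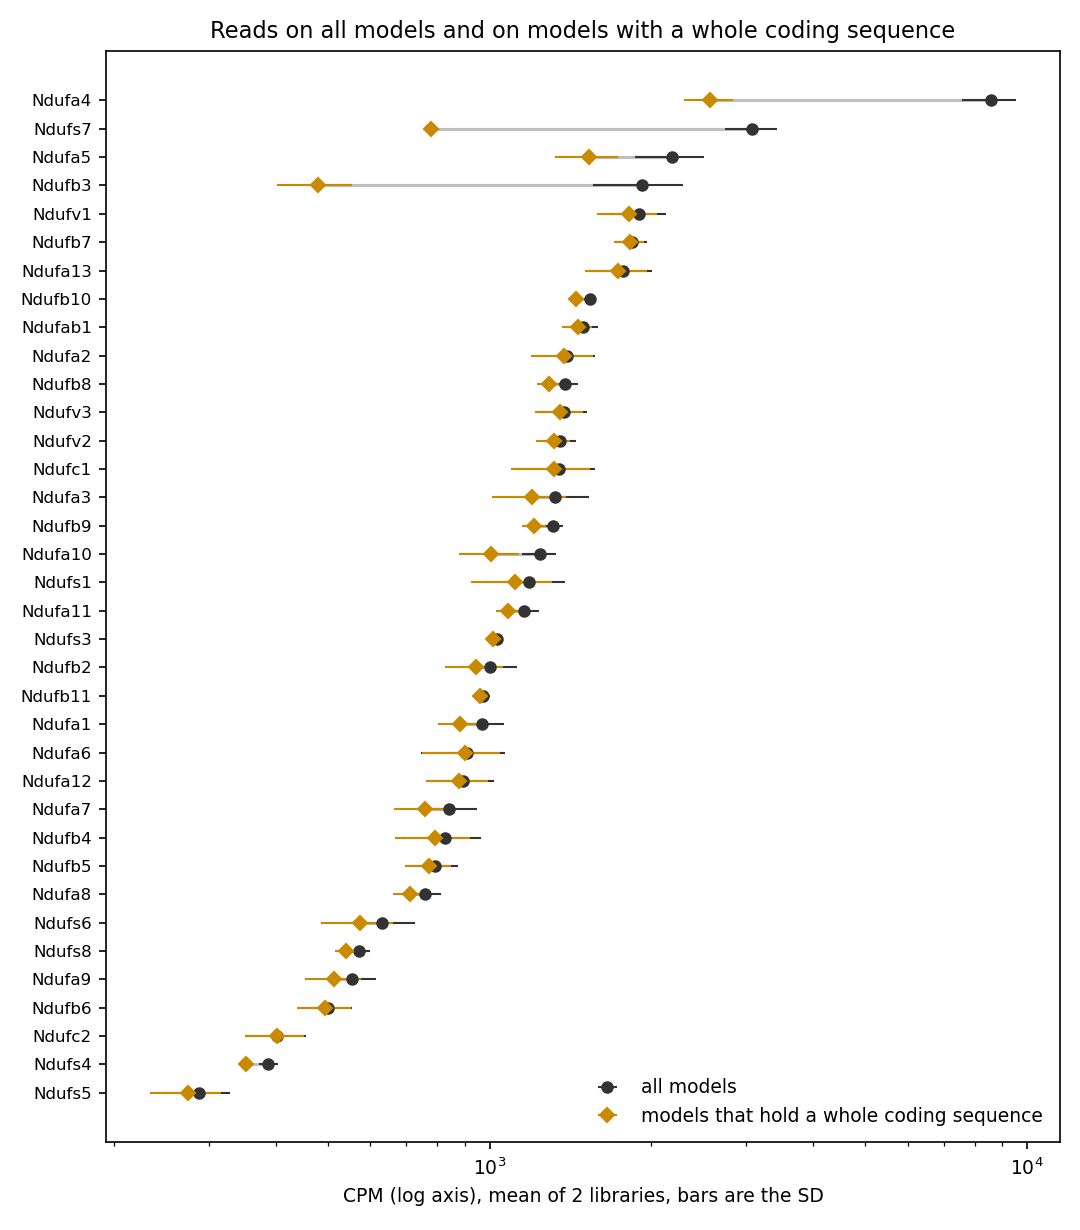
Mean CPM (log axis, n = 2, bars are the SD) of Ndufa4 and 35 structural subunits from all models (circles) and from models that hold a whole coding sequence (diamonds). The 2 values lie close for most genes and far apart for Ndufa4 (8569 and 2573 CPM), Ndufs7 (3080 and 778 CPM) and Ndufb3 (1924 and 479 CPM).

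In most other complex I genes most reads were placed on models that hold a whole annotated coding sequence. A shorter annotated coding sequence of the gene also counted, so such a model need not hold the longest one. Over the 44 coding genes that reached 20 reads in both libraries, the median share of reads on whole coding models was 93.9%, against 83.3% over 3923 other coding genes. In 32 of the 44 genes (72.7%) the share was 90% or more, against 31.8% of other genes. In 5 genes it was under 50%, which is 11.4% of complex I genes and 15.8% of others. These genes are deeply read, and among genes with at least 500 reads the shares of 90% or more were 83.3% of 36 complex I genes and 49.0% of 402 others. In the subunits of other complexes listed below, the median share was 94.9% in complex III and 96.3% in complex IV. It was 92.7% in ATP synthase, with a further gene named Atp5o counted, and 77.8% in complex II. Genes were not matched for transcript length in these comparisons. Besides Ndufa4, Ndufs7 and Ndufb3, the genes under 50% were the assembly factors Ndufaf7 and Ndufaf6. In Ndufaf7 a single-exon model in the last exon took 81.9% of reads in replicate 2 and 69.7% in replicate 1.

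The differences between libraries went with transcript length. Over the 36 structural subunits the Spearman correlation of the log2 ratio with the length of the leading known transcript was -0.46, and over 450 genes with at least 500 reads it was -0.47. These are descriptions across genes that share the same 2 libraries. All 16 subunits with transcripts under 750 nt had a positive log2 ratio, with a median of 0.23, as did 58 of 68 other genes of that length, with a median of 0.19. All 11 subunits in the middle class (758 to 1249 nt) were positive as well, as were 52 of 76 other genes in that class. Of the 9 subunits in the longest class (1251 to 2661 nt) 3 were positive, with a median of -0.15, against 77 of 269 other genes with a median of -0.13. Ndufs1 (2661 nt) and Ndufv1 (1661 nt), both called lower in replicate 2, belong to this longest class. Ndufa13, positive in the same class, is there by its annotated 1251 nt, while the model that took most of its reads has 573 nt. Ndufs7 and Ndufb3 are in the middle class by transcripts of 758 and 763 nt. Most of their reads lay on models of 246 and 316 nt. Ndufb2, in the shortest class by its 455 nt transcript, had 48.3% of its reads in replicate 2 and 43.1% in replicate 1 on a transcript of 4371 nt. Transcript length and role overlap in this set, since 4 of the 7 core subunits are in the longest class. Incomplete models also took more reads of other genes in replicate 2 than in replicate 1 (14.2% and 11.99%). The part of length and of incomplete models in the calls was not tested. For Ndufs7 the log2 ratio was 0.23 on all models, and on known transcripts alone it was 0.03 (adjusted p = 0.984, exact binomial test).

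**Figure D4:**
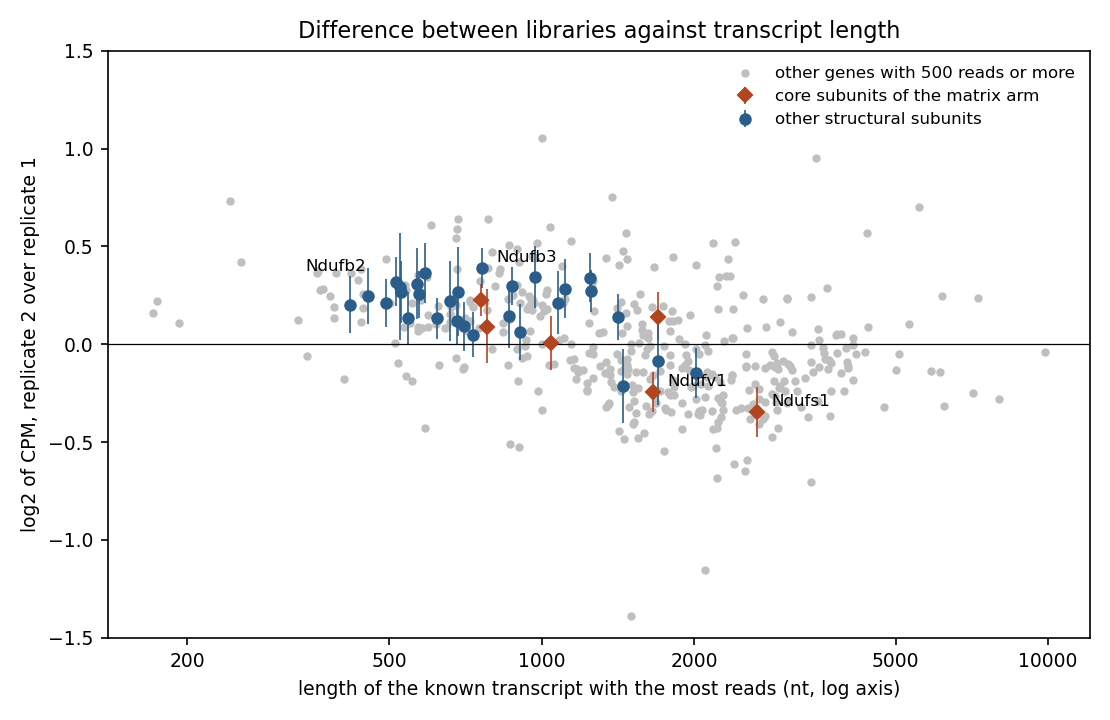
Log2 ratio of CPM, replicate 2 over replicate 1, against the length of the leading known transcript in nt (log axis) for 6 core (diamonds) and 29 other structural subunits (circles) with 95% counting intervals, and for 413 other genes with at least 500 reads (grey, 1 outside the axis). Subunits of up to 1249 nt all lie above 0, and Ndufs1 and Ndufv1 lie below it.

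Most complex I genes used 1 transcript. The share of the leading multi-exon model, or of the leading known transcript where that was the only one, had a median of 91.2% over the 45 genes that reached 20 reads in both libraries. It differed between libraries in 1 of them by Fisher's exact test, against 0.609% of 3938 genes. That gene was Ndufa10, a subunit related to nucleoside kinases, in which Ndufa10-201 took 77.8% of reads in replicate 2 (75.3% to 80.1%) and 84.3% in replicate 1 (81.7% to 86.6%; adjusted p = 0.0361, Fisher's exact test). Single-exon genomic models took 17.6% of its reads in replicate 2 and 10.7% in replicate 1, and without incomplete and genomic models the adjusted p was 1. Ndufv3, whose longer form adds a large exon, was read almost only as the 3-exon transcript Ndufv3-202, which took 97.4% of reads in replicate 2 and 96.9% in replicate 1. The 4-exon Ndufv3-201, with 1404 coding bases in place of 312, had 12 reads in replicate 2 and 13 in replicate 1.

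Several genes had a second full transcript with at least 10% of reads in both libraries. In Ndufb2 the long transcript Ndufb2-205 (4371 nt) took 48.3% of reads in replicate 2 and 43.1% in replicate 1, beside 45.9% and 50.6% for Ndufb2-202 (455 nt). Both hold the same 315 coding bases, and the 3′ end of the long one lies 3911 nt further along chromosome 6. In Ndufs1 a second transcript took 18.8% in replicate 2 and 19.1% in replicate 1, beside 57.9% and 58.1% for Ndufs1-201. In Ndufs8 the shares of Ndufs8-201 were 17.2% in replicate 2 and 19.9% in replicate 1, beside 71.7% and 68.1% for Ndufs8-205. In both Ndufs1 and Ndufs8 the pair shares its coding sequence and differs in 1 intron outside it. Ndufb1-ps-201 took 15.1% of reads in replicate 2 and 12.5% in replicate 1. Among assembly factors, a second transcript of Ndufaf1 took 25.9% in replicate 2 and 22.5% in replicate 1 and has the coding sequence of the leading Ndufaf1-202. Ndufaf4-202, which keeps an intron, took 20.0% in replicate 2 and 19.0% in replicate 1. In none of these genes was the share of the leading transcript called different between libraries.

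New spliced models numbered 354 in 46 genes, of which 106 were found in both libraries and 16 had at least 5 reads in each. The most abundant was a 20-exon model of Ndufs1 with 123 reads in replicate 2 and 98 in replicate 1, or 11.8% and 10.8% of the gene's reads. It adds an annotated noncoding exon of another transcript between the first exons (chromosome 1, 63172154 to 63172257, mm10) and keeps the whole coding sequence. A similar Ndufs1 model, with another 5′ splice site of the first exon, had 37 reads in replicate 2 and 40 in replicate 1. In Ndufab1 a model with 68 reads in replicate 2 and 41 in replicate 1 began its last exon 104 nt earlier, after the coding sequence. In Ndufa13 a model with a 5′ splice site shifted by 4 nt had 20 reads in replicate 2 and 11 in replicate 1.

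The new model of the assembly factor Ndufaf6 held a large share of the gene's reads. It left out exon 4 of Ndufaf6-201, a coding exon of 57 bases or 19 codons (chromosome 4, 11066651 to 11066707, mm10, minus strand). The intron that skips this exon is annotated for the gene outside Ndufaf6-201, so only the combination of introns is new. Exon 4 is shown in capitals between 45 coding bases on each side.
Ndufaf6: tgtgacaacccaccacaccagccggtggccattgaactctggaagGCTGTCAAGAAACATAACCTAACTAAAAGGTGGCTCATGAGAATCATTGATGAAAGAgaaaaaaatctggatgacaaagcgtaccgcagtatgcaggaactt
This model had 15 of 34 reads in replicate 2 and 16 of 25 in replicate 1, or 44.1% and 64.0%, while Ndufaf6-201 had 18 and 7 reads. With so few reads the shares did not pass the test between libraries (adjusted p = 0.985, Fisher's exact test).

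Counts of genes with near-identical copies are uncertain. Of the 48 genes, 17 had an annotated match elsewhere at 90% identity or above, over at least 50% of the shorter sequence. This gave 47 pairs of a gene and a match with 43 different matches, Ndufb4 and Ndufb4c among them as copies of each other. The 7 matches of Ndufc1 and the 5 of Ndufaf7 were all annotated as misc_RNA, and those of Ndufc1 aligned in the opposite orientation. They covered at most 159 of 1249 nt in Ndufc1 and 171 of 1749 nt in Ndufaf7, and had no read. Gm22906, Gm22993 and Gm25072 matched both genes, so these matches are not gene copies. Of all 43 matches, 6 had reads. Besides the pairs Ndufs5 with BC002163 and Ndufb4 with Ndufb4c, they held at most 6 reads in replicate 2 and 4 in replicate 1. Ndufa4 and Ndufb3, whose short models were abundant, have 3 and 2 processed pseudogenes without a read. Ndufb9 shares exons with other gene names on its strand, and pooling them left the calls of all complex I genes the same.

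Promoter windows of 300 bases (250 before to 50 after the start, RefSeq on GRCm38.p6) were matched for 41 of the 48 genes and searched on both strands for 4 motifs of factors known from respiratory chain genes. The NRF1 motif (GCGCA, any base, then GCGC) was found for 9 of the 41 genes, against 5.19% of all 27025 genes with a window and 13.6% of 316 other genes with at least 500 reads. The YY1 motif AAGATGGCG was found for 6 genes (14.6%), against 1.64% of all genes and 4.43% of the deeply read ones. This motif holds an ATG, and in Ndufs7 that ATG is the annotated start of the coding sequence. Whether the other matches lie on start codons was not tested. The ETS motif CCGGAAG was found for 6 genes (14.6%), against 9.93% and 17.4%. The ERR motif TCAAGGTCA was found for none of the 41, against 0.466% and 0.633%. NRF1 and YY1 matches fell together in Ndufs6, ETS and YY1 in Ndufaf8, and matches of different motifs overlapped in no window. A match describes letters in the window only, and the libraries hold no measure of factor binding.

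The mitochondrially encoded subunits form the core of the membrane arm. Their 7 genes summed to 2981 CPM in replicate 2, against 2005 CPM in replicate 1. mt-Nd2 had 1134 CPM in replicate 2, against 749 CPM in replicate 1, mt-Nd1 had 940 and 687 CPM in that order, and mt-Nd4 had 628 and 373 CPM. These 3 of the 5 genes tested were called higher in replicate 2, with log2 ratios of 0.60, 0.45 and 0.75. mt-Nd5 had 243 CPM in replicate 2, against 177 CPM in replicate 1 and was not called. mt-Nd3 had 26 reads in replicate 2 and 11 in replicate 1, while mt-Nd4l had 4 reads in replicate 2 and 1 in replicate 1 and mt-Nd6 had 5 and 1.

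Assembly factors without an Nduf name had a median of 48.5 CPM, near the 55.4 CPM of the Ndufaf genes. The 10 that the annotation lists summed to 921 CPM in replicate 2, against 994 CPM in replicate 1. None was called different among 10 tested, while 3.36% of all genes tested were called. Tmem70, which also serves ATP synthase assembly, was highest at 394 CPM in replicate 2, against 434 CPM in replicate 1. On all models that is above every Ndufaf gene and above the structural subunits Ndufs5 and Ndufs4. From models with a whole coding sequence Tmem70 averaged 253 ± 49.0 CPM (SD, n = 2). By that count it was above every Ndufaf gene but under Ndufs5 (275 CPM) and Ndufs4 (353 CPM). With the reads of BC002163 counted, Ndufs5 would average 491 CPM on all models. Ecsit followed Tmem70 with 161 CPM in replicate 2, against 174 CPM in replicate 1. Foxred1 had 91.6 CPM in replicate 2, against 118 CPM in replicate 1. Timmdc1 was lowest at 18.9 CPM in replicate 2, against 20.3 CPM in replicate 1. The nuclear subunits of the other complexes summed to 4910 ± 330 CPM for 4 genes of complex II, 19907 ± 477 CPM for 9 genes of complex III, 35099 ± 4291 CPM for 10 genes of complex IV and 41181 ± 745 CPM for 15 genes of ATP synthase (SD, n = 2). The median level was 1096 CPM in the structural subunits of complex I, against 1294 CPM in complex II and 1529 CPM in complex III. It was 2326 CPM in complex IV and 1779 CPM in ATP synthase. The name Atp5o matched a further annotated gene with very few reads, which is in the ATP synthase sum but not in this median. Between libraries, complex II had 0 genes called higher in replicate 2 and 1 lower of 4, and complex III had 2 higher and 4 lower of 9. Complex IV had 7 higher and 0 lower of 10, and ATP synthase had 6 higher and 2 lower of 15, beside the 35.3% called among the 462 deeply read genes.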

How the data were processed

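The deposited values are whole, unnormalized counts of reads on each transcript model of a library, with an annotation of the models on mm10 and GENCODE M21, per the file headers and text descriptions. Sources used here give no aligner or read filters. Which gene a read is given to, and at which exon a model begins, was decided there.

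Counts were summed over all models of a gene and scaled to CPM per mouse reads without the spike-ins, and 1 CPM was added before taking log2 ratios. Genes whose reads summed to 10 or more over both libraries were tested with an exact binomial test (two-sided), the expected split being that of all mouse reads. The leading transcript's share was tested with Fisher's exact test in genes that reached 20 reads in both libraries. Both were done with Benjamini-Hochberg adjustment over all genes and a threshold of 0.05. The 2 libraries form 1 group, so conditions were not compared. New spliced models were matched between libraries by intron chain. Copies were sought with blastn 2.17.0. Both tests were tested on simulated data. Calculations used Python 3.11.15, scipy 1.17.1, edgeR 4.0.16 and DESeq2 1.42.0 in R 4.3.3. The alternatives covered scaling, count minimums, reads counted, length, depth and left-out replicates.

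The genes, role groups and lists were chosen with earlier results of these data known. Values are given for the 10 highest genes, each gene called, the lowest of each role, all assembly factors, second transcripts with at least 10% of reads, and the 5 most abundant new spliced models. Among these genes, 1 is not reported here by itself and is left out of the plots, while sums and counts include it. BC002163 and the 5 genes grouped for incomplete reads were picked once their values were known. Of the listed assembly factors, Coa1 matched no gene name of the annotation. No protein sequences were used here.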

Additional observations from a re-analysis of the deposited data

How the results depend on the processing

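No paired analysis was possible because the series has 1 group. The summed level of the 48 genes (52274 CPM) ranged from 49303 to 55244 CPM when either replicate was left out, and moved to 38013 CPM on known transcripts, 38831 CPM without incomplete and genomic models and 68111 per kb of transcript. The share of complex I reads on incomplete models (25.1%) ranged from 24.1% to 26.2% without either replicate. It was 12.4% as a mean over genes, where each gene counts once. The count of 19 genes called between libraries stayed between 17 and 23 under scaling by TMM or DESeq2, other count minimums, other model classes, pooled names and thinning, with 16 to 19 of the same genes. Over all genes tested, the same settings called between 254 and 338 genes, of 4032 to 15410 tested. TMM and DESeq2 size factors each gave 21 higher and 2 lower, with 292 and 291 calls over all 8836 genes. The edgeR exact test with a common dispersion estimated from both libraries as 1 group gave 0 calls among the 47 genes. It gave 0 higher, 0 lower and 0 at an unadjusted p under 0.05, against 25 calls over all 8836 genes. No log2 ratio of a called gene changed sign under any of these. Among the genes named, and besides Ndufs7, these settings lost the calls of Ndufs6 (known transcripts), Ndufa13 (without incomplete models, its main class) and Ndufb2 (thinned). The count of genes with a differing leading transcript was 2 with at least 50 reads in each library (Ndufa10 and Ndufs7), 0 without incomplete and genomic models, where 3 had an unadjusted p under 0.05, and 0 on known transcripts, where 2 did, all by Fisher's exact test. The median share of the leading transcript moved to 97.1% without incomplete and genomic models and was 91.1% and 91.2% in replicates 2 and 1. The assembly factors Ndufaf2, Ndufaf5 and Ndufaf6 had 17 to 34 reads a library, which limits their values.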

Other observations

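Antisense reads opposite complex I exons were few. New antisense models overlapped exons of 8 of the 48 genes, with 9 reads in replicate 2 and 6 in replicate 1 over all of them, and no gene had 10 antisense reads in both libraries. Ndufab1 had the most, with 5 antisense reads in replicate 2 and 2 in replicate 1, beside 1571 and 979 sense reads.

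The class names of single-exon models were not the same in both libraries for Ndufaf8. Single-exon models at its 3′ end were placed among incomplete models in replicate 2 (56 reads, 36.1%) and among genomic models in replicate 1 (34 reads, 36.6%). The share of Ndufaf8 reads on whole coding models was close in both, at 55.5% in replicate 2 and 60.2% in replicate 1.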
